A study of Mus musculus with 12 samples.

Results

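The HC arm after 80% hepatectomy was compared here with 80% hepatectomy alone, in liver RNA of mice. Members are the 3 PH80_HC and the 3 PH80 libraries, 6 of the 12 samples, and the 12316 of 13554 genes in the deposited table with a normalised value of at least 10 in at least 3 of these 6 libraries. All 4 groups of the study are wild-type (WT) male C57Bl/6J mice sampled on postoperative day 3 (POD 3). PH70 mice lost 70% of the liver and PH80 mice 80%. PH80_HC had the 80% resection with HC, and PH80_G+H the 80% resection with G-CSF and HNF4a. The labels and the design text do not spell out HC. From knowledge of the published study, and not from these files, HC is read as the arm kept in hypoxia after the operation, and no source used here gives the oxygen level or the length of exposure. No test below uses that reading. No source used here gives the age of the mice, and nothing there tells whether each library is from its own mouse. P-values therefore rest on the spread among libraries, which could be technical in part.

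After partial hepatectomy the hepatocytes of the remnant divide while they keep up the liver's metabolic work, and sinusoidal endothelial cells follow later. Hepatocytes differ along the lobule: those around the central vein carry out glutamine synthesis and much of the cytochrome P450 oxidation under Wnt control, and those around the portal tract carry out urea synthesis and gluconeogenesis. In low oxygen, HIF transcription factors escape breakdown by prolyl hydroxylases and switch on genes of glycolysis and vessel growth.

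Values are normalised read counts, that is, reads divided by the size factor of the library. Differences are on the log2(value + 1) scale, PH80_HC minus PH80, with p-values from limma adjusted by the Benjamini-Hochberg method over the 12316 genes and a threshold of 0.05. The libraries hold between 15.0 M and 28.6 M reads in PH80 and between 23.5 M and 40.7 M in PH80_HC, so counting error is small beside the spread between libraries except in genes with few reads. PH80_HC replicate 3 stands apart from the other 5: it lies at 56.8 on the first principal component of the 6 libraries (35.0% of the variance), where the others lie between -34.0 and 6.67. Its 67 ribosomal protein genes average 0.83 log2 above the PH80 mean, while PH80_HC replicates 1 and 2 lie at -0.27 and -0.35. Neutrophil markers are high in PH80 replicate 2, at 1.68 above the PH80 mean. The tissue label is borne by the data: Alb, the gene of albumin, held between 6.74% and 10.9% of all values in the 6 libraries.

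In PH80_HC 84 genes rose (0.682% of the genes tested) and 31 fell (0.252%), and the change was at least 2-fold in 71 and 29 of them. At an unadjusted p under 0.05 there were 987 higher and 769 lower genes, or 1756 of 12316. A higher mean in PH80_HC was found for 51.6% of all tested genes. Counts of both kinds in the lists below are to be read beside these shares. Each of the 115 called genes had PH80_HC libraries that do not overlap the PH80 libraries, which was the case for 8.31% of all tested genes in the upward and 7.3% in the downward direction. Where such separation is named below or in a figure for a called gene, it is thus no further support for it. Of the 84 risen genes, 19 were also above each of the 6 libraries of PH70 and PH80_G+H, among them Cyp27a1, Mug1, Ifi47, Gbp2, Cxcl9, Jchain, Prlr and Cyp4a14. Of the 31 fallen genes, 14 were below all 6, among them Mup1, Mup7, Slc16a6, Serpinh1, Snai1 and Tpm4. Over all tested genes 131 (1.06%) lay above and 117 (0.95%) below all 9 other libraries. Since the called genes were all separate from PH80 already, the like shares are 131 of 1023 upward and 117 of 899 downward. These are taken among all tested genes whose PH80_HC libraries do not overlap PH80. B3galt1, a galactosyltransferase, and Mug1, a protease inhibitor of plasma, had the smallest adjusted p among the rises (0.00562 for both), and Inava, an adaptor of innate immune signalling, among the falls (0.00929). B3galt1 was chosen after its values were seen, as were Mug1, Snai1, Serpinh1 and Tpm4.

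The number of calls depends on the fit. With the spread estimated from the 6 libraries alone, 0 genes were called higher and 2 lower (Inava and Npas2), against 732 and 594 at an unadjusted p under 0.05, 85 and 35 by edgeR and 349 and 157 by DESeq2. The sum of normalised values was larger in PH80_HC replicates 1 and 3 (29.2 M and 30.5 M) than in the PH80 libraries (21.1 M to 21.4 M). With every library set to the same total, the median of all genes moved from 0.01 to -0.31 and the split became 17 higher and 56 lower, and 17 of the 84 rises and all 31 falls were among them. Without PH80_HC replicate 3 there were 52 and 15 calls. Without PH80_HC replicate 1 there were 12 and 20, without PH80_HC replicate 2 there were 38 and 17, without PH80 replicate 1 there were 19 and 4, and without PH80 replicate 3 there were 58 and 7. Libraries of the other groups, which share in the estimate of the spread, counted too: 38 and 13 without PH70 replicate 2, and 33 and 11 without PH80_G+H replicate 3. All 115 genes kept their sign in every one of the 26 alternatives that gave them a value. Since the groups do not overlap in these genes, leaving out a library could not change the sign, so this is no further support.

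**Figure D1:**
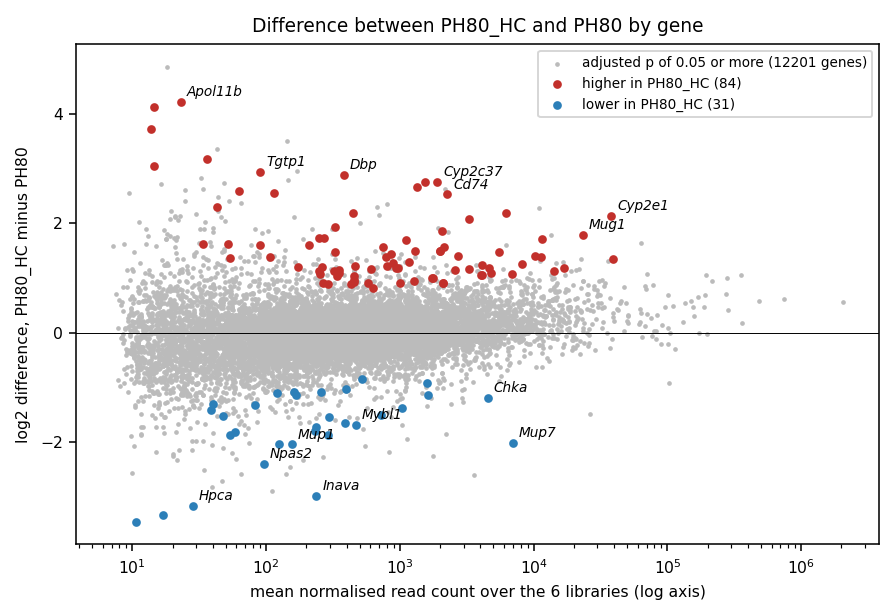
Each point is 1 of the 12316 genes, with the mean normalised read count over the 6 libraries on a log x axis and the log2 difference, PH80_HC minus PH80, on the y axis. Red points mark the 84 genes that rose and blue points the 31 that fell at an adjusted p under 0.05, with some names in italics, and the called genes lie at all levels of expression.

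Genes of pericentral hepatocytes were among those that rose. Of 20 listed genes, 4 rose and 0 fell, the median difference was 0.79 against 0.01 over all genes, and 18 had a higher mean in PH80_HC. Cyp2e1, the P450 that oxidises ethanol and paracetamol (chromosome 7, 140763739 to 140774987, GRCm38), stood at 10157, 10802 and 23914 in PH80 and 69406, 60255 and 53074 in PH80_HC (log2 difference 2.13, SE 0.34, limma adjusted p = 0.0153). The PH80_HC libraries were all above the PH80 libraries, of which replicate 3 was the highest. Glul, glutamine synthetase of the innermost ring around the central vein, stood at 6240.1, 4236 and 9049.6 in PH80 and 16988, 13704 and 18418 in PH80_HC (log2 difference 1.39, SE 0.28, limma adjusted p = 0.0374). Slc1a2, the glutamate transporter of the same cells, stood at 421, 809.7 and 858 in PH80 and 1675, 1659 and 2329.8 in PH80_HC (1.49, adjusted p = 0.0289). The last was Cyp27a1, sterol 27-hydroxylase of bile acid synthesis, at 4983, 3927 and 5517 in PH80 and 10302, 10353 and 13834 in PH80_HC (1.26, adjusted p = 0.0299). In all 4 genes the 2 groups are separate. The summed values of the list were 60228, 57641 and 102303 in PH80 and 182552, 170578 and 166430.0 in PH80_HC, beside 149530.0, 185380.0 and 128313 in PH70 and 128902, 121765 and 110359 in PH80_G+H. Wnt targets of the list did not all move: Axin2 differed by 0.42 (adjusted p = 0.675) and Lgr5 by -0.06 (adjusted p = 0.958), both chosen after their values were seen. Of the 16 periportal genes, 1 rose, Pigr, the receptor that carries polymeric immunoglobulin into bile, at 6114, 3943 and 6826 in PH80 and 16592, 12219.9 and 15308 in PH80_HC (1.41, adjusted p = 0.0231), and the list's median was 0.39. Without PH80_HC replicate 3, or with every library at the same total, 1 pericentral and 0 periportal genes were called.

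Drug-metabolising enzymes followed, with 5 of 38 higher, 0 lower, a median of 0.64 and 33 with a higher mean. Besides Cyp2e1 these were 3 P450 genes of the Cyp2c cluster on chromosome 19 and the carboxylesterase Ces1c. By library the list mean, on the log2 scale relative to the PH80 mean, was 0.01, -0.32 and 0.31 in PH80. It was 0.99, 1.03 and 0.75 in PH80_HC, beside 1.02, 0.93 and 0.45 in PH70 and 0.84, 0.52 and 0.67 in PH80_G+H. PH80 was thus the low group here as well. Cyp2c37 (chromosome 19, 39992424 to 40012243) stood at 316, 329 and 874 in PH80 and 2361, 5119 and 2380.4 in PH80_HC (log2 difference 2.77, SE 0.47, limma adjusted p = 0.0213). Its neighbour Cyp2c54 stood at 207, 273 and 748 in PH80 and 2393, 4333 and 1261 in PH80_HC (2.75, adjusted p = 0.0341), and Cyp2c50 at 1980.2, 1318 and 3793 in PH80 and 10213, 13435 and 6771 in PH80_HC (2.18, adjusted p = 0.0282). In each the lowest PH80_HC library was above the highest PH80 library, which was replicate 3. Cyp2c38 of the same cluster, chosen after its values were seen, also rose (1.39, adjusted p = 0.0156), so that 4 called genes lie between 39389556 and 40113950. These genes are related in sequence, as are Ces1b and Ces1c on chromosome 8, but how alike they are was not measured here. The counting could have split reads among them, so which copy rose is uncertain to an extent that was not tested. Ces1c stood at 18777, 16925 and 32651 in PH80 and 56741, 50554 and 60717 in PH80_HC (1.36, adjusted p = 0.0407). Cyp1a2, another pericentral P450, fell short of the threshold (3257, 1465 and 5479.9 in PH80, 9195, 8839 and 8983 in PH80_HC, 1.60, adjusted p = 0.0556). Ces1c and Cyp1a2 were chosen after their values were seen. Without PH80_HC replicate 3 there were 4 calls in the list, at the same total 2, and with DESeq2 11.

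Other hepatocyte functions showed single calls and medians above 0. In bile acid synthesis and transport 2 of 24 genes rose (median 0.49, 22 with a higher mean): Cyp27a1 and Slc27a5, which couples bile acids to coenzyme A, at 8303, 8401 and 9628 in PH80 and 21174, 14623 and 23033 in PH80_HC (1.14, adjusted p = 0.0356). The uptake transporter Slc10a1 was at 2004, 3215 and 3779 in PH80 and 6428, 6619.7 and 6324 in PH80_HC without passing the test (adjusted p = 0.0785). Cyp7a1, which sets the pace of bile acid synthesis, was scattered in both groups, at 1143, 79.3 and 988 in PH80 and 129, 1410.2 and 288 in PH80_HC (adjusted p = 0.94). Among 39 genes of the urea cycle and amino acid breakdown 2 rose, Glul and Prodh, proline dehydrogenase, at 1496, 1530.4 and 1365 in PH80 and 3933, 2727 and 5324 in PH80_HC (1.40, adjusted p = 0.0172), with a median of 0.42. Fatty acid oxidation and ketogenesis had 2 of 31 higher (median 0.47). Cyp4a14, a fatty acid hydroxylase, stood at 946, 899 and 1755 in PH80 and 4226, 8673 and 3115 in PH80_HC (2.08, adjusted p = 0.0389). Angptl4, an inhibitor of lipoprotein lipase, stood at 477, 1169 and 1013 in PH80 and 4950.4, 2322 and 2388 in PH80_HC (1.87, adjusted p = 0.0395), highest in replicate 1. Gluconeogenesis and glycogen had 1 call of 20, Ppp1r3g, a glycogen-targeting subunit of protein phosphatase 1. It had values of 0, 0.748 and 1.04 in PH80 and 44.5, 26.3 and 14.3 in PH80_HC, with at most 1 read per library in PH80, and so passed the filter on low values only through PH80_HC, beside 57.5, 87.7 and 66.9 in PH70 and 1.84, 10.9 and 4.76 in PH80_G+H. With every library at the same total, calls in the bile acid, urea and amino acid, fatty acid and gluconeogenesis lists were 0, 1, 0 and 1, with medians of 0.16, 0.09, 0.14 and 0.06 against -0.31 for all genes. They were 0, 1, 1 and 0 without PH80_HC replicate 3, and Ppp1r3g was then under the filter.

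Secreted plasma proteins and coagulation factors gave 0 calls in either direction by limma among 38 genes, with 13 at an unadjusted p under 0.05, 10 by DESeq2 and 0 by edgeR. Their median was 0.57 and 36 had a higher mean in PH80_HC. Alb stood at 1484320.0, 1548760.0 and 1857740.0 in PH80 and 3194590.0, 2119200.0 and 2056740.0 in PH80_HC (0.57, adjusted p = 0.811), above PH80 in all 3 libraries and highest in replicate 1. With every library at the same total the median of the list was 0.24, against -0.31 for all genes. Mug1 is outside this list: it stood at 8826, 12441 and 10445 in PH80 and 37973, 35125 and 35329.5 in PH80_HC (log2 difference 1.79, SE 0.21, limma adjusted p = 0.00562), beside 29002, 29421 and 28518 in PH70 and 21713, 21414 and 18339 in PH80_G+H, and it passed the threshold in 25 of 26 alternatives. The transcription factors of hepatocytes also gave 0 calls by limma, edgeR and DESeq2 among 23 genes (5 at an unadjusted p under 0.05), with a median of 0.31 that became -0.02 at the same total. Hnf4a, the factor that keeps hepatocytes differentiated, was at 7482, 12708 and 10237 in PH80 and 16043, 13055 and 13178 in PH80_HC (0.50, adjusted p = 0.35). The lowest PH80_HC value lay close above the highest PH80 value.

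Clock genes were called in both directions. Dbp, Tef and Upp2, outputs that are driven by the clock, rose, and Npas2, the partner of BMAL1 in the activating arm, fell, which makes 3 higher and 1 lower of 23 (median 0.68). Dbp, a transcription factor of the PAR bZIP family (chromosome 7, 45705088 to 45710203), stood at 97.0, 50.1 and 129 in PH80 and 488, 977 and 562 in PH80_HC (log2 difference 2.90, SE 0.41, limma adjusted p = 0.0126), beside 2113, 1339.9 and 671 in PH70 and 529.8, 479 and 615 in PH80_G+H. The lowest PH80_HC library was well above the highest PH80 library. Tef, of the same family, stood at 433, 506 and 578 in PH80 and 1612, 2402 and 1134 in PH80_HC (1.70, adjusted p = 0.0215). Upp2, a uridine phosphorylase, stood at 231, 336 and 495 in PH80 and 1713, 3726 and 1542 in PH80_HC (2.66, adjusted p = 0.0215), beside 5572, 5584 and 2038 in PH70 and 2956, 1304 and 2975 in PH80_G+H. Npas2 (chromosome 1, 39193731 to 39363236) went the other way and varied little within the groups, at 184, 141 and 166 in PH80 and 30.0, 31.1 and 28.5 in PH80_HC (log2 difference -2.41, SE 0.35, limma adjusted p = 0.014), beside 34.5, 25.6 and 75.8 in PH70 and 107, 121 and 64.6 in PH80_G+H. Of the repressors, Nr1d1 (REV-ERB alpha) was at 173, 369 and 692 in PH80 and 1229, 1249 and 756 in PH80_HC (1.57, adjusted p = 0.0727) and Cry1 at 221, 138 and 199 in PH80 and 122, 138 and 98.6 in PH80_HC (-0.62, adjusted p = 0.256). Both missed the threshold and were chosen after their values were seen. Without PH80_HC replicate 3 the list again had 3 calls higher and 1 lower. At the same total it had 2 and 1. No source used here gives the hour at which the livers were taken, and its part in these differences was not tested. Dbp shares 737 bases with Sphk2 on the opposite strand, and since the sources do not say whether counting used strand, reads from the shared stretch cannot be told apart.

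The promoter of Tef is shown because its gene rose with Dbp and it holds an E-box, which clock factors bind, and a match to a loose D-box pattern. That pattern leaves its middle bases (N) free, and whether PAR bZIP factors bind the letters found, TTAGATAA, was not tested. The RefSeq window (GRCm38.p6, chr15:81802423-81802722, plus strand, 250 bases before to 50 after the annotated start) has in capitals 1 E-box (CACGTG) from -127 to -122 and 1 D-box core (TTANNTAA) from -174 to -167.
Tef: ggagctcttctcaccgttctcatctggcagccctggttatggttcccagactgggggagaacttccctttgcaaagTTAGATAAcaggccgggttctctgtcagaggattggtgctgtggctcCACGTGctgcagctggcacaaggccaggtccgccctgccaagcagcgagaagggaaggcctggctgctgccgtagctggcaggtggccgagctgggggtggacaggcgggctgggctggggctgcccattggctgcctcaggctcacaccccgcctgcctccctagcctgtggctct
Both strands were searched. A second annotated start of Tef also has an E-box, from -138 to -133. Of the 12670 windows of tested genes 9.64% hold an E-box and 3.73% a D-box core, and among the 81 windows of risen genes both shares were 11.1%. No match of either was in the windows of Dbp and Upp2, which says only that these letters are not in these 300 bases.

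**Figure D2:**
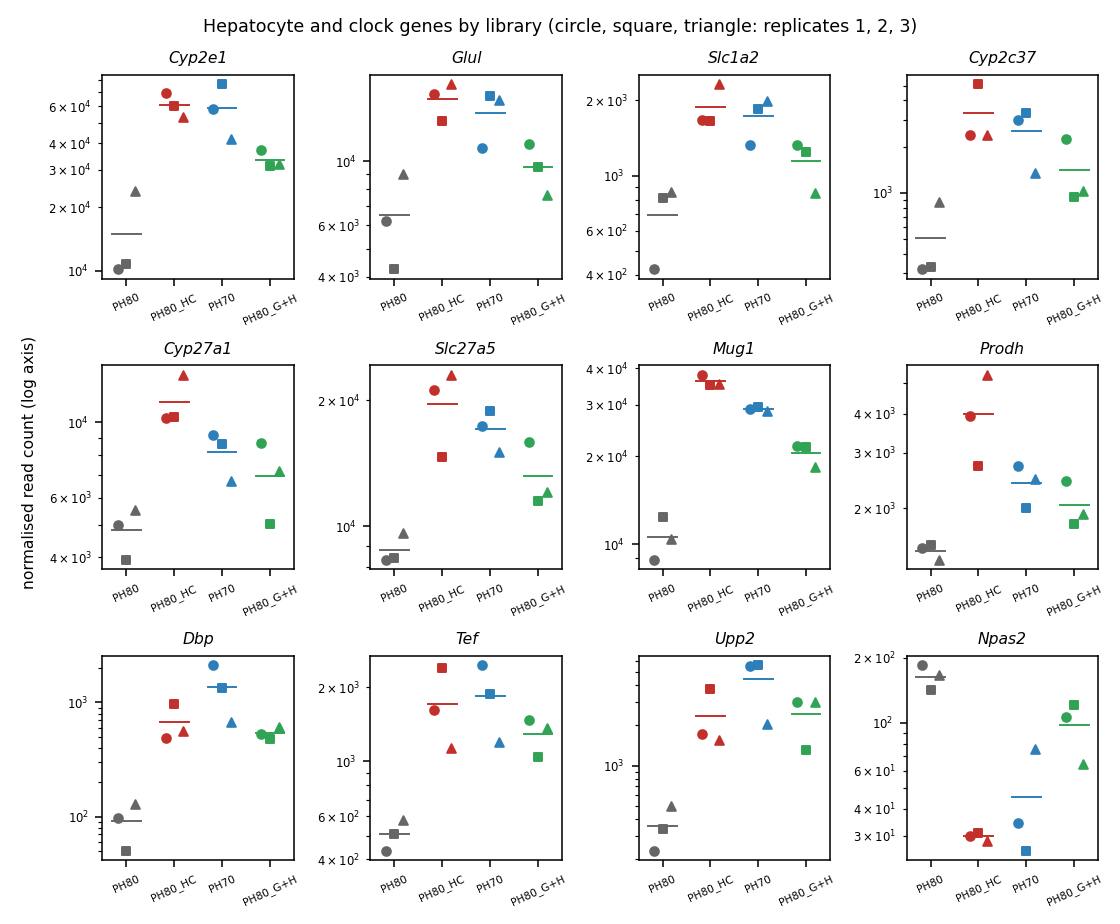
Normalised read counts on log y axes for 12 genes, with 1 point per library, the shape giving the replicate and a line at the group mean, in PH80, PH80_HC, PH70 and PH80_G+H. In 11 of the genes the red PH80_HC points lie above all grey PH80 points, and for Npas2 they lie below, at 28.5 to 31.1 against 141 to 184.

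Interferon-inducible GTPases, which attack the vacuoles of intracellular microbes, were higher in mean throughout. Of 17 tested, 5 rose, 0 fell, 17 had a higher mean, and the median was 0.98. By library the list mean, on the log2 scale relative to the PH80 mean, was 0.03, -0.31 and 0.28 in PH80. It was 0.79, 1.73 and 0.95 in PH80_HC, beside 0.77, 0.87 and 0.47 in PH70 and 0.86, 0.89 and 1.04 in PH80_G+H. PH80 was thus the low group, and the list's rise is not particular to PH80_HC. Tgtp1 (chromosome 11, 48985327 to 48994172) stood at 12.7, 15.7 and 21.9 in PH80 and 134, 298 and 58.4 in PH80_HC (log2 difference 2.95, SE 0.48, limma adjusted p = 0.0156), beside 26.6, 42.0 and 20.1 in PH70 and 51.5, 48.0 and 61.2 in PH80_G+H. All PH80_HC values exceeded all PH80 values, over a wide range within PH80_HC. Igtp (chromosome 11, 58199556 to 58207591) stood at 463, 280.4 and 383 in PH80 and 857, 1468 and 1055 in PH80_HC (1.58, adjusted p = 0.015), and its neighbour in the genome Irgm2 lies on the same strand and shares 7974 bases of gene span with it. Ifi47 stood at 565, 324 and 589.6 in PH80 and 1061, 1137 and 1126 in PH80_HC (1.22, adjusted p = 0.0251), a narrow set of PH80_HC values above all 9 other libraries. Gbp2 stood at 113, 111 and 84.4 in PH80 and 206, 308 and 209 in PH80_HC (1.21, adjusted p = 0.0341) and Gbp2b at 25.3, 8.22 and 14.6 in PH80 and 38.9, 135 and 152 in PH80_HC (2.59, adjusted p = 0.0388). These last 2 lie next to each other on chromosome 3, and Tgtp1 and Ifi47 on chromosome 11. Tgtp1 has a near-identical copy, Tgtp2, so the share of each copy is uncertain. The guanylate-binding proteins are related genes whose likeness in sequence was not measured here, and a split of reads among them was not tested. Without PH80_HC replicate 3 there were 4 calls, at the same total 1 (15 of 17 means higher), and with DESeq2 8.

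The promoters of the GTPases that rose are shown because many interferon-inducible genes carry GAS or ISRE elements near their start. Windows run from 250 bases before to 50 after the RefSeq start (GRCm38.p6), and capitals mark GAS (TTCNNNGAA) or the core of an ISRE (GAAANNGAA), searched on both strands. The 2 motifs may share bases. Tgtp1 is chr11:48992197-48992496, minus strand, and Igtp is chr11:58199306-58199605, plus strand. Gbp2b is chr3:142594597-142594896, plus strand, and Gbp2 is chr3:142620413-142620712, plus strand.
Tgtp1: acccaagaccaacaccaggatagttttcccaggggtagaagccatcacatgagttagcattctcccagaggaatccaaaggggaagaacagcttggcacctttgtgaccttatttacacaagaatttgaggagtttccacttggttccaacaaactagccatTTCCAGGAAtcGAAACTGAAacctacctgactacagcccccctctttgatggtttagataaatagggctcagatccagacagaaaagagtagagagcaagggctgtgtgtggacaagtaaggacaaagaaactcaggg
Igtp: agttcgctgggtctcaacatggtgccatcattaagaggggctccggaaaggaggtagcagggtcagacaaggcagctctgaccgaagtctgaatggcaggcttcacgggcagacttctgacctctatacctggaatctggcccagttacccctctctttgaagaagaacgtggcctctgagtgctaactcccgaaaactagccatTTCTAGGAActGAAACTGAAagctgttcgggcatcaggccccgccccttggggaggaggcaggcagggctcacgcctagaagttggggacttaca
Gbp2b: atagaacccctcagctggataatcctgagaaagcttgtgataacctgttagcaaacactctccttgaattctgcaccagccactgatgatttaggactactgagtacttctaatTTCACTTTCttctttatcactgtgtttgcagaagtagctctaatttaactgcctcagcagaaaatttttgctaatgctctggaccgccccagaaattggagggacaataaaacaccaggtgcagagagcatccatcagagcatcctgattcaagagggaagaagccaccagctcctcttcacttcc
Gbp2: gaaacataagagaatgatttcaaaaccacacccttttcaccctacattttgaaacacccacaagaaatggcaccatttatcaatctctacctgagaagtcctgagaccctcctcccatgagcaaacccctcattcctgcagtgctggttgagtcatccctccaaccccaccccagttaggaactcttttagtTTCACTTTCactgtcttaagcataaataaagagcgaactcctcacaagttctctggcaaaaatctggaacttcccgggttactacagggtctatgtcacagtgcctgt
Tgtp1 has TTCCAGGAA from -88 to -80 and GAAACTGAA from -77 to -69. Igtp has TTCTAGGAA from -45 to -37 and GAAACTGAA from -34 to -26, so the 2 elements have the same order and spacing in both. Gbp2b and Gbp2 have TTCACTTTC, the ISRE core read on the other strand, from -136 to -128 and from -58 to -50. The window of Ifi47 holds neither. Of 12 windows of 11 list members, 10 (83.3%) hold the ISRE core and 50% hold GAS, and among the windows of all tested genes the shares were 7.43% and 7.05%. Among windows of the risen genes they were 19.8% and 17.3%, and among the 29 windows of fallen genes 6.90% and 0. A match is a description of the letters and no evidence of binding.

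In the wider interferon response, of 47 genes, 1 rose and 1 fell, the median was 0.14, and 27 had a higher mean. The one that rose was Cxcl9, the chemokine that interferon gamma induces to draw T cells, at 226, 111 and 78.1 in PH80 and 324, 754 and 458 in PH80_HC (1.94, adjusted p = 0.045). The one that fell was Oasl1, an antiviral gene of the type I interferon response, at 1463, 829 and 907 in PH80 and 512, 244 and 383 in PH80_HC (-1.51, adjusted p = 0.0374), beside 519.9, 409 and 769 in PH70 and 1453, 2011 and 1337 in PH80_G+H.

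Genes of antigen presentation were also higher in mean. Cd74, the invariant chain of MHC class II, stood at 1163, 456 and 398 in PH80 and 2008, 3207 and 6369 in PH80_HC (log2 difference 2.53, SE 0.50, limma adjusted p = 0.0341), highest in replicate 3. It was the 1 call among 8 class II genes tested, of 11 listed, whose median was 1.73 with 8 of 8 means higher. H2-Aa was at 488, 156 and 177 in PH80 and 673, 1385 and 1957 in PH80_HC (2.36, adjusted p = 0.0513) and H2-Ab1 at 429, 119.6 and 174 in PH80 and 578, 1159.6 and 1609.8 in PH80_HC (2.30, adjusted p = 0.0542), just short of the threshold. PH80 replicate 1 was the highest of its group in each. Markers of T and NK cells were higher in these libraries as well: 15 of 15 tested had a higher mean (median 1.90), 11 had an unadjusted p under 0.05, 5 were called by DESeq2, and 0 by limma. Of 26 listed markers 23 had values and only 15 passed the filter. For these and the class II genes, values of at least 10 in the 3 PH80_HC libraries alone meet the filter, which can favour higher means. How many passed only in that way was not counted. Summed over the 23 T and NK markers, filtered or not, values were 665, 246 and 206 in PH80 and 627, 1424 and 1468 in PH80_HC. They were 199.7, 225 and 268 in PH70 and 248, 198 and 301 in PH80_G+H. PH80 replicate 1 thus reached the level of PH80_HC replicate 1, and Eomes was at 0 in PH80 replicates 2 and 3. Ccl5, a chemokine of these cells chosen after its values were seen, was at 115, 24.7 and 11.5 in PH80 and 155, 245 and 328 in PH80_HC (2.80, adjusted p = 0.0562).

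Jchain, the joining chain of polymeric immunoglobulin, rose at 60.5, 32.9 and 14.6 in PH80 and 137, 224 and 214 in PH80_HC (2.56, adjusted p = 0.0341) and was the 1 call among 9 B and plasma cell markers (median 0.40). The summed values of those markers were 284, 246 and 126 in PH80 and 269.7, 547 and 597 in PH80_HC, with none at 0 in these 6 libraries. Macrophage and monocyte markers summed to 31004, 47506 and 22762 and 34872, 37704 and 58363, with 0 calls by limma and 1 by DESeq2 among 24 (7 at an unadjusted p under 0.05), and none at 0. In bulk tissue more cells of a type and more RNA per cell cannot be told apart. The part of these cells in the rises of the GTPases, class II genes, Cxcl9 and Jchain was not tested. Without PH80_HC replicate 3 there were 0 calls in the class II, T and NK and B cell lists, with medians of 1.42, 1.48 and 0.10.

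Inava had the smallest adjusted p among the falls. It encodes an adaptor of innate immune receptors and cell junctions (chromosome 1, 136213531 to 136234264) and stood at 443, 387 and 434 in PH80 and 51.0, 41.6 and 67.5 in PH80_HC (log2 difference -2.98, SE 0.38, limma adjusted p = 0.00929), beside 58.1, 56.7 and 127 in PH70 and 80.9, 251 and 149 in PH80_G+H. With Npas2 it was past the threshold in 26 of 26 alternatives. Mybl1, a MYB-family activator of cell cycle genes, stood at 620.2, 788 and 723 in PH80 and 306, 237 and 145 in PH80_HC (-1.68, adjusted p = 0.0231), beside 90.2, 87.7 and 176 in PH70 and 327, 430.4 and 373 in PH80_G+H. Ppard, the nuclear receptor PPAR delta, stood at 761, 437 and 574 in PH80 and 209.7, 181 and 158 in PH80_HC (-1.66, adjusted p = 0.0126). Slc16a6, a carrier that lets ketone bodies leave hepatocytes, stood at 469.7, 318 and 534 in PH80 and 188, 113 and 150.5 in PH80_HC (-1.54, adjusted p = 0.014), and it shares 1959 bases with Amz2 on the opposite strand. In these genes each PH80_HC library was below each PH80 library. Amn, the membrane partner of cubilin, stood at 243, 206 and 150.0 in PH80 and 51.8, 26.3 and 73.9 in PH80_HC (-2.05, adjusted p = 0.0261). Icosl, the ligand of the T cell costimulator ICOS, fell by 1.87, Arhgap22 by 1.87, Smim3 by 1.83, the acetyltransferase-like Nat8f5 by 1.79 and the proton pump subunit Atp4a by 1.74 on the log2 scale, with adjusted p between 0.014 and 0.0389.

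Further falls, chosen after their values were seen, included enzymes and structural genes. Odc1, ornithine decarboxylase of polyamine synthesis, stood at 2193, 2121 and 2289 in PH80 and 1216, 1115 and 733 in PH80_HC (-1.14, adjusted p = 0.0261). Chka, choline kinase of phosphatidylcholine synthesis, stood at 6967, 5688 and 6197 in PH80 and 2905, 2583 and 2758 in PH80_HC (-1.19, adjusted p = 0.036). Serpinh1, the collagen chaperone HSP47, stood at 1489, 1647 and 1392 in PH80 and 619.5, 549.5 and 572 in PH80_HC (-1.38, adjusted p = 0.0401), beside 689, 1426 and 1400.4 in PH70 and 793, 1643 and 1256 in PH80_G+H. The PH80_HC values of Odc1, Chka and Serpinh1 each span less than the gap to PH80. The tropomyosin Tpm4 (-0.92, adjusted p = 0.0272) and the repressor Snai1 (-1.53, adjusted p = 0.0462) fell as well.

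Growth hormone targets and male-biased genes had calls in both directions, with 2 of 38 higher, 2 lower and a median of 0.12. Socs2, a feedback inhibitor of growth hormone signalling, stood at 136, 106 and 206 in PH80 and 351, 709 and 1162 in PH80_HC (log2 difference 2.19, SE 0.43, limma adjusted p = 0.0341). Prlr, the prolactin receptor, stood at 1131, 745 and 1329 in PH80 and 2834, 3371 and 2611 in PH80_HC (1.49, adjusted p = 0.0174). Both were higher in every PH80_HC library. The fallen ones are major urinary proteins, pheromone carriers of male mice. Mup7 (chromosome 4, 60066469 to 60070475) stood at 11098, 7857 and 13655 in PH80 and 5544, 1729 and 1846 in PH80_HC (-2.02, adjusted p = 0.0341), beside 15866, 17296 and 8919.6 in PH70 and 19164, 12784 and 16355 in PH80_G+H. Mup1 stood at 321, 155 and 282 in PH80 and 71.3, 51.6 and 51.9 in PH80_HC (-2.05, adjusted p = 0.015), beside 616, 517 and 285 in PH70 and 567, 392 and 453 in PH80_G+H. PH80_HC was the lowest of the 4 groups for both. With every library at the same total the list had 0 calls higher and 2 lower (median -0.21), and without PH80_HC replicate 3 it had 1 and 1. Mup genes are near-identical copies, so the split of reads between them is uncertain.

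**Figure D3:**
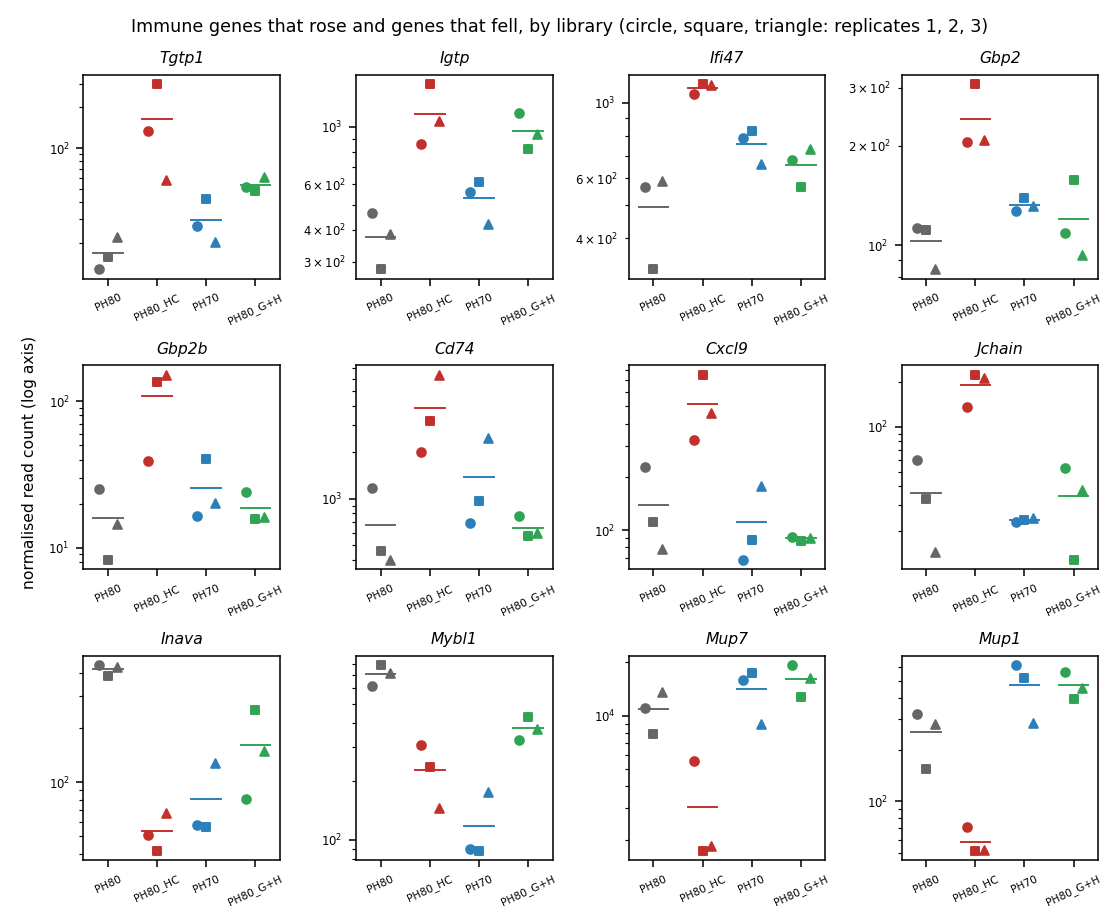
Normalised read counts on log y axes for 8 immune genes that rose and 4 genes that fell, with 1 point per library, the shape giving the replicate and a line at the group mean. The red PH80_HC points lie above all grey PH80 points in the first 8 panels and below them in the last 4, and for Mup7 and Mup1 they also lie below the PH70 and PH80_G+H points.

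Mitotic genes were lower in mean without a call. All 44 had a lower mean in PH80_HC (median -0.74, range -1.31 to -0.01), 25 at an unadjusted p under 0.05, 3 called lower by DESeq2 and 0 by limma or edgeR. Cdk1, the kinase that starts mitosis, was at 2049, 3292 and 2116 in PH80 and 879, 1763 and 1531 in PH80_HC (-0.86, adjusted p = 0.158). Mki67, which marks cells in cycle, was at 1298, 3119 and 1428 in PH80 and 897, 1852 and 1637 in PH80_HC (-0.36, adjusted p = 0.68). In both, PH80 replicate 2 was the highest of the 6 libraries. By library the list mean was -0.43, 0.63 and -0.19 in PH80 and -1.33, -0.38 and -0.40 in PH80_HC on the log2 scale, relative to the PH80 mean, and PH80 replicate 1 lay below PH80_HC replicates 2 and 3. S phase and replication genes had a median of 0.04 over 43 genes, with 26 means higher, 3 at an unadjusted p under 0.05, 0 calls by limma and 1 in each direction by DESeq2. Of 24 regulators of G1, Mybl1 fell and no other passed the test (median -0.20). Ccnd1 was at 4706, 5003 and 5954 in PH80 and 5257, 4139 and 2885 in PH80_HC (adjusted p = 0.554), Ccne1 at 222, 352 and 355 in PH80 and 249, 248 and 228 in PH80_HC (adjusted p = 0.583) and the inhibitor Cdkn1a at 2533, 2596 and 1599 in PH80 and 2794, 1466 and 1436 in PH80_HC (adjusted p = 0.774). PH80_HC and PH80 overlap in Ccnd1, Ccne1 and Cdkn1a.

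Genes of the hypoxia response gave 1 call among 44 tested, of 50 listed, with a median of -0.10 and 17 with a higher mean. The call was Angptl4, which PPAR factors also control and which the fatty acid list holds too. Egln3, a prolyl hydroxylase that HIF induces, was at 643, 628 and 574 in PH80 and 513, 488 and 498 in PH80_HC (-0.30, adjusted p = 0.505). Vegfa, the main growth factor of vessels, was at 2233, 1747 and 2277 in PH80 and 1375, 2894 and 1369 in PH80_HC (-0.24, adjusted p = 0.802). Pdk1, which holds pyruvate back from mitochondria, was at 518, 306 and 484 in PH80 and 718, 787 and 464 in PH80_HC (0.59, adjusted p = 0.27), and Hmox1, heme oxygenase, at 1321, 3652 and 1151 in PH80 and 1486, 2119 and 1794 in PH80_HC (0.01, adjusted p = 0.993). None of the 4 was above PH80 in all PH80_HC libraries, and Egln3 was below it in all 3. Car9, a carbonic anhydrase and HIF target, was under the filter, with values from 5.19 to 9.47 in PH80_HC and from 8.22 to 11.5 in PH80. Epo is not analysed here. The liver hormone of iron, Hamp, was at 30494, 43381 and 10268 in PH80 and 19499, 19171 and 33846 in PH80_HC (-0.03, adjusted p = 0.987). With an SE of 0.30 for Vegfa and 0.18 for Egln3 small changes were not detectable with 3 libraries a group.

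Vessel genes showed no call by limma. Angiogenic ligands and receptors had a median of -0.02 over 35 genes (9 at an unadjusted p under 0.05, 3 higher and 3 lower by DESeq2). Sinusoidal endothelial markers had a median of 0.09 over 21 (2 at an unadjusted p under 0.05, 1 lower by DESeq2), and pan-endothelial markers -0.07 over 20 (2 at an unadjusted p under 0.05, 0 by DESeq2). Stab2, a scavenger receptor of sinusoidal cells, was at 894, 1185 and 683 in PH80 and 845, 1103 and 1347 in PH80_HC (adjusted p = 0.662), and Pecam1 at 502, 541 and 365 in PH80 and 363, 399 and 431 in PH80_HC (adjusted p = 0.711). Summed values of the angiogenic list were 30247, 32719.5 and 29691 in PH80 and 37085, 37204 and 41010.0 in PH80_HC, which lie above all 9 other libraries. Its most abundant member is Ang, angiogenin, a secreted ribonuclease that hepatocytes also make, at 9289, 13422 and 11303 in PH80 and 20526, 14719 and 23243 in PH80_HC (0.77, adjusted p = 0.15). Summed sinusoidal markers were 27147, 26049 and 25882 in PH80 and 35383, 29798 and 32295 in PH80_HC, which do not overlap. Their most abundant member, the lysosomal protease Ctsl, was at 15591, 12014 and 16082 in PH80 and 26292, 17450.5 and 13932 in PH80_HC (0.36, adjusted p = 0.558). Ang and Ctsl were chosen after their values were seen. Averaged over members on the log2 scale, relative to the PH80 mean, both lists overlapped between the groups. The sinusoidal list was at 0.06, 0.19 and -0.24 in PH80 and -0.38, 0.08 and 0.45 in PH80_HC. The angiogenic list was at 0.05, 0.07 and -0.13 in PH80 and -0.42, 0.04 and -0.00452 in PH80_HC. Stellate cell and matrix genes were lower in mean, 22 of 25, with a median of -0.62, 12 at an unadjusted p under 0.05, 1 lower by DESeq2 and 0 calls by limma. Their summed values were 31897, 49001 and 26682 in PH80 and 23588, 20666 and 21298 in PH80_HC, which do not overlap. Acta2, smooth muscle actin of activated stellate cells, was at 384, 629.5 and 297 in PH80 and 161, 87.4 and 42.8 in PH80_HC (-2.28, adjusted p = 0.101), and Col1a1 at 1189.8, 7666 and 549 in PH80 and 713, 333 and 191 in PH80_HC (-2.26, adjusted p = 0.284), both chosen after their values were seen. PH80 replicate 2, which has the high neutrophil markers, was the highest for both.

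**Figure D4:**
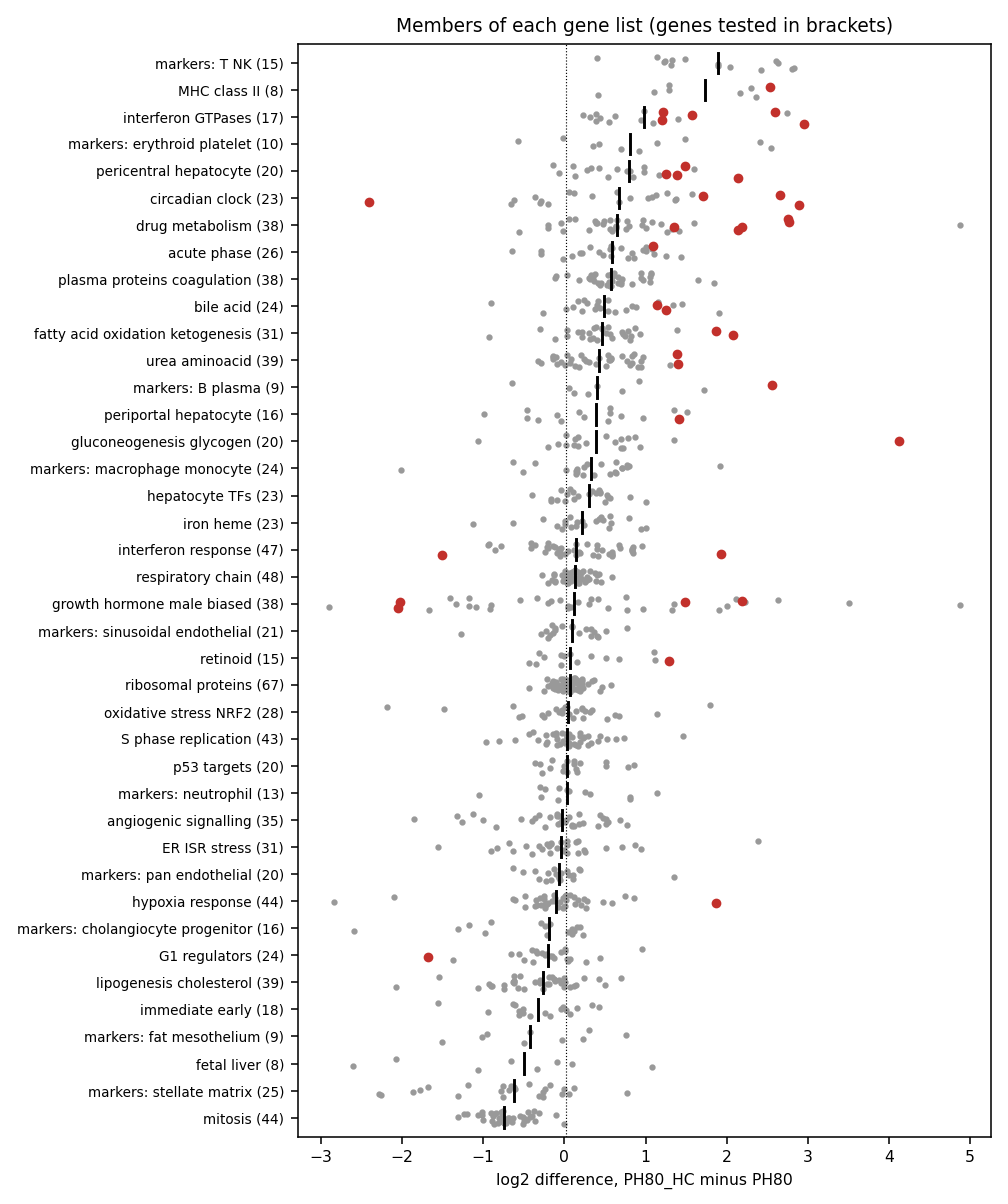
Each row is 1 gene list with its number of tested genes, each point 1 member at its log2 difference, PH80_HC minus PH80, red where the adjusted p is under 0.05, with a bar at the median of the list and a dotted line at the median of all genes (0.01). Lists run from T and NK cell markers at 1.90 at the top to mitosis at -0.74 at the bottom.

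**Figure D5:**
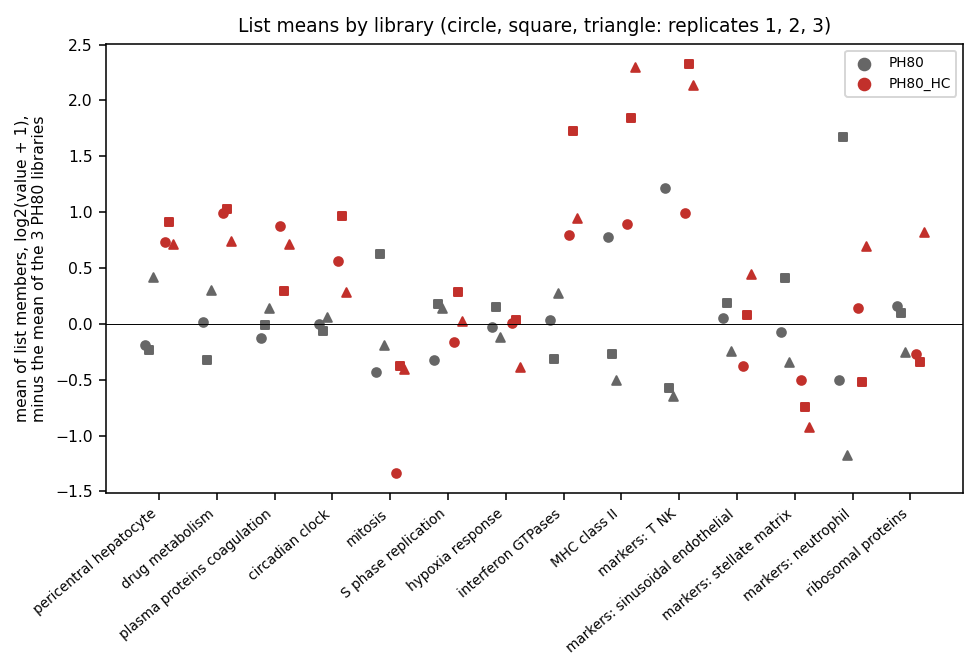
Mean of the members of 14 lists in each of the 6 libraries, as log2(value + 1) minus the mean of the 3 PH80 libraries, with PH80 in grey, PH80_HC in red and the shape giving the replicate. Mitosis and T and NK markers overlap between the groups, while interferon GTPases, MHC class II, pericentral, drug metabolism, plasma protein, clock and stellate lists do not.

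Remaining lists held few calls. Crp of the acute phase rose (1.09, adjusted p = 0.0418), the 1 call of 26 (median 0.58), and so did the retinol dehydrogenase Rdh16 (1.28, adjusted p = 0.0341), the 1 call of 15 retinoid genes (median 0.07). Lipid and cholesterol synthesis had a median of -0.26 over 39 genes, with 31 lower in mean, 11 at an unadjusted p under 0.05, 4 lower by DESeq2 and 0 by limma. Over all tested genes 1756 of 12316 were at an unadjusted p under 0.05. Limma made 0 calls in iron and heme genes (6 of 23 at an unadjusted p under 0.05), p53 targets (1 of 20), stress of the endoplasmic reticulum (6 of 31), NRF2 targets (6 of 28), immediate early genes (4 of 18), respiratory chain subunits (2 of 48), ribosomal proteins (0 of 67) and fetal liver genes (3 of 8). DESeq2 called 4, 1, 3, 0, 1, 0, 0 and 1 of them. Among markers of other cells, limma likewise made 0 calls for cholangiocytes (median -0.19), neutrophils (0.03), erythroid cells and platelets (0.81), and fat with mesothelium (-0.43), with 2, 1, 5 and 0 at an unadjusted p under 0.05 and 0, 0, 2 and 0 by DESeq2. Csf3r, the G-CSF receptor of neutrophils, was at 73.1, 266 and 54.2 in PH80 and 84.2, 109 and 123 in PH80_HC (adjusted p = 0.988).

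Some risen genes outside the lists were chosen after their values were seen. B3galt1 stood at 146, 170.5 and 203 in PH80 and 504, 421 and 516 in PH80_HC (log2 difference 1.47, SE 0.17, limma adjusted p = 0.00562). Gabarapl1, a protein of autophagosome membranes, stood at 2548, 2985 and 3103 in PH80 and 7356, 7853 and 8914 in PH80_HC (1.48, adjusted p = 0.0142). Cyp4f15, a fatty acid hydroxylase, stood at 1534, 1401 and 1433 in PH80 and 2765, 2778 and 2690.4 in PH80_HC (0.91, adjusted p = 0.0299), with the PH80_HC values above those of all 9 other libraries. Gas6, the ligand of the TAM receptors that mediate uptake of dying cells, stood at 1337, 893 and 934 in PH80 and 4131, 1928 and 3644 in PH80_HC (1.57, adjusted p = 0.0261). Cdo1, cysteine dioxygenase of taurine synthesis, rose by 1.19, and Csad, the next enzyme of that route, by 1.29 (adjusted p = 0.0395 and 0.0462). The smallest rise that passed was that of Arhgef10l, at 0.81 (adjusted p = 0.0497).

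A few called genes had almost no reads in 1 of the groups, and their fitted differences depend on the added 1. Apol11b, of the apolipoprotein L family, had values of 2.81, 0.748 and 1.04 in PH80 and 32.4, 46.3 and 55.8 in PH80_HC, beside 1.82, 1.83 and 4.46 in PH70 and 7.36, 1.48 and 0.68 in PH80_G+H, and Xlr4a had values of 1.41, 2.24 and 0 in PH80 and 18.6, 24.7 and 35.0 in PH80_HC. Dsg1c, a desmosomal cadherin, had values of 4.22, 5.98 and 9.37 in PH80 and 45.3, 76.3 and 76.5 in PH80_HC, beside 68.4, 71.3 and 100.3 in PH70 and 5.52, 1.48 and 8.16 in PH80_G+H. In the other direction, Hpca, a neuronal calcium sensor, had values of 70.3, 28.4 and 56.2 in PH80 and 4.86, 6.84 and 2.59 in PH80_HC, and Mroh3 had values of 12.7, 14.2 and 34.4 in PH80 and 0, 0.526 and 2.59 in PH80_HC. All 5 were chosen after their values were seen. All 5 passed the filter on low values only through the group in which they were high, and they are counted among the 115 called genes. How many called genes passed only in that way was not counted. Of the 115 called genes, 18 overlap another tested gene in the annotation, 17 of them only on the opposite strand, where reads cannot be told apart without strand.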

How the data were processed

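RNA was prepared with a Qiagen column kit and sequenced from stranded Illumina libraries of polyadenylated RNA, per the labels' protocols. The deposited table holds a normalised signal, which the authors made by dividing the reads of a library by its size factor. The submitters' processing notes name GRCm38 (mm10) and DESeq2. The aligner, the counter and the gene models were not given in the sources used here. In each of the 12 libraries 100% of the values were whole multiples of 1 read within 0.01, so reads could be recovered for the count tests.

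Genes that reached 10 in 3 or more of the 6 libraries were kept (12316 of 13554). Limma (3.58.1, R 4.3.3) was fitted with an intensity trend to log2(value + 1) in all 12 libraries with group as the factor, so the groups share 1 estimate of the spread. The contrast PH80_HC minus PH80 was two-sided, with Benjamini-Hochberg adjustment and a threshold of 0.05. Fold changes on this scale understate low genes. EdgeR (4.0.16, quasi-likelihood) and DESeq2 (1.42.0, Wald) were run on recovered reads as alternatives. The fit was tested on simulated data. Alternatives covered the pseudocount, filter, trend, scaling, weights, length and GC, replicate block and leaving out each library.

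Named genes are the 14 with the largest change in each direction among called genes (mean of at least 50, no overlap, no predicted gene), up to 4 members of each list with a call, and 22 genes in every case, some left out for length. Genes outside this rule are marked. Gene lists (42 lists, 1061 entries tested) are described by counts and medians with no set test. The members, lists and rules were chosen with earlier results of these data known. Coordinates are from GENCODE on GRCm38, and promoter windows are from RefSeq (GRCm38.p6), found for 92 of the 115 called genes and 9893 tested genes. Pancreas and muscle markers had 2 tested members each and 0 calls.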

Additional observations from a re-analysis of the deposited data

How the results depend on the processing

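The counts of 84 higher and 31 lower genes moved by over 1.5 times under several settings. They were 0 and 2 with only the 6 libraries compared in the fit, 17 and 56 with every library at the same total, and 349 and 157 with DESeq2, and the rises were 134 with the length and GC trend removed. Leaving out 1 library at a time gave between 12 and 90 higher and between 4 and 35 lower genes. With the replicate number as a block the counts were 45 and 20. The labels do not say whether the numbers pair the samples. Deviations of same-numbered PH80 and PH80_HC libraries from their group means correlated at -0.178, -0.0447 and -0.383, and 0 of 3 correlated best with their own number. Deviations from a mean of 3 libraries depend on each other, so these values cannot decide whether the samples are paired. Among 42 named called genes 0 of 1086 values under an alternative changed sign, which leaving out a library could not bring about in groups that do not overlap. Of these values 302 lost the threshold. The cause of these moves was not tested. A fit with 6 libraries has fewer samples to estimate the spread, and the part of this in the drop was not tested either. Pseudocounts of 0.5 and 5, other filters on low values, no trend, TMM scaling, library weights and edgeR kept both counts within 1.5 times.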
